A study of Mus musculus with 12 samples.

Results

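Day 6 embryoid bodies (EBs) made from E14 mouse embryonic stem cells (ESCs) with a knockdown (KD) of circKat6b-e2 were compared with EBs made from wild-type (WT) cells, across all genes. The labels give E14 as the line of every library. The comparison used 6 of the 12 libraries of the series, 3 KD and 3 WT, and all 17355 of the 52636 annotated genes that passed a filter on low counts. The titles mark the KD as an shRNA knockdown. Whether WT cells carried a control shRNA, and whether KD cells were 1 clone or a pool, is not stated in the labels, so each KD minus WT difference also covers any other difference between the cell populations. The other 6 libraries were undifferentiated ESCs of both kinds, kept on gelatin with LIF, PD0325901 (a MEK inhibitor) and CHIR99021 (a GSK3 inhibitor), and serve here only as a reference. Libraries were made from poly-T selected mRNA and sequenced as 150 bp pairs.

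Circular RNAs form when a downstream splice site is joined to an upstream one, so that the molecule has no free end and no poly(A) tail. circKat6b-e2 is named after an exon of Kat6b, whose linear mRNA encodes a histone acetyltransferase of the MYST family that works in a complex with BRPF scaffold proteins, ING5 and MEAF6. EBs are floating aggregates in which ESCs leave the naive pluripotent state, pass through states like those of the epiblast and primitive streak, and give rise to mesoderm, endoderm and ectoderm without added positional cues.

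A poly-T selection does not retain a circular RNA, so the targeted molecule itself was not measured. Its host gene Kat6b, on chromosome 14 from 21481434 to 21672478 (GRCm38), stood at 36.8, 36.1 and 34.6 CPM in the WT libraries and 71.8, 70.9 and 69.00 CPM in the KD libraries (log2 fold change 0.98 ± 0.06 SE, adjusted p = 2.57e-15 by edgeR). All 3 KD libraries lay above all 3 WT libraries. In a normalization of all 12 libraries, Kat6b was at 78.6 ± 11.7 CPM (SD, n = 3) in WT ESCs and 104 ± 4.31 CPM in KD ESCs. CPM values are counts scaled to a common library size after normalization. SE is the standard error of the log2 fold change (KD minus WT), and a gene was called, or is said to have risen or fallen, at an edgeR quasi-likelihood adjusted p under 0.05. These counts check nothing about the circular RNA.

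Total counts of the 6 libraries lay between 30331578 and 35001853, with 22574 to 23548 genes detected, mitochondrial shares of 1.49% to 1.66% and normalization factors within 0.9942 to 1.0054. The first principal component, with 69.66% of the variance, separated KD from WT, and the next, with 8.62%, set WT replicate 1 (37.55) apart from the other 5 libraries. Against the pattern of undifferentiated cells, the EB label was borne out by its markers: in a normalization of all 12 libraries Pou5f1 was at 1051 ± 117 CPM (SD, n = 3) in WT ESCs and 42.3 ± 3.98 CPM in WT EBs, and the endoderm factor Sox17 at 0.142 ± 0.126 and 72.2 ± 1.47 CPM.

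Transcripts of the Y chromosome separated the groups in a way that the labels do not describe. Eif2s3y, which encodes a subunit of a translation initiation factor, had 90, 91 and 101 counts in the WT EB libraries and 0 in each KD EB library. With 3 counts per library as the limit that 0 allows, it was at least 30.6-fold lower. The RNA helicase gene Ddx3y had 68, 61 and 75 counts against 0 in each KD library (at least 22.1-fold lower), and the demethylase gene Uty 34, 18 and 39 counts against 0, 0 and 2. In the ESC libraries, WT and KD alike, Eif2s3y and Ddx3y had 0 counts throughout, and Uty had 5 counts in ESC WT replicate 1 and 0 elsewhere. The X-linked partners of these genes did not move alike. Eif2s3x fell, at 152 ± 4.50 CPM in WT and 137 ± 2.09 CPM in KD EBs. Ddx3x (log2 fold change 0.015, edgeR adjusted p = 0.706) did not pass. Kdm6a, the partner of Uty, rose, at 73.0 ± 1.76 CPM in WT and 86.8 ± 6.92 CPM in KD EBs. Counts of Eif2s3y and Ddx3y were thus seen in the WT EB libraries alone among the 12. Whether the WT EBs came from the same cells as the other libraries was not tested, which bears on the differences between EBs and ESCs as well. What this difference contributes to the values below cannot be told apart from the knockdown, since it follows the groups.

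**Figure D1:**
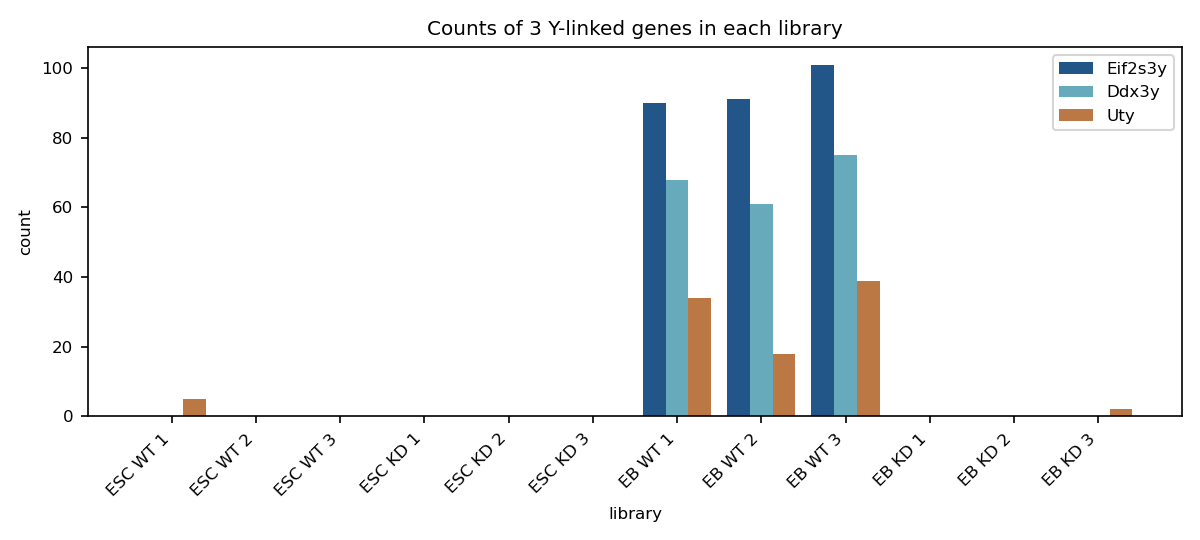
Raw counts (vertical axis) of Eif2s3y, Ddx3y and Uty in each of the 12 libraries (horizontal axis). The 3 WT EB libraries carry 18 to 101 counts of each gene, and no other library has more than 5.

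In all, 9667 of 17355 tested genes differed between KD and WT EBs (55.7%), 4865 higher (28.0%) and 4802 lower (27.7%). These shares are the background for every count below. Most changes were moderate: the median absolute log2 fold change of called genes was 0.50, and 1234 genes (7.11%) rose and 1168 (6.73%) fell by at least 1 on the log2 scale. KD and WT libraries did not overlap in 10618 genes (61.2%). The median over all tested genes was 0.0024. The called share was 22.5% of genes below a mean of 0 log2 CPM and 78.6% of those at 8 and over. Because EBs are mixtures of cells, fewer cells of a type and less RNA per cell cannot be told apart in any value here.

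Selected genes were placed into 56 lists by role, which cover only part of the tested genes and can share members. The members and lists were chosen with earlier results of these data known. The plot of these lists by median shows endothelial, Hox and naive pluripotency genes at the upper end. At the lower end are cardiac, immediate early, trophoblast, glycolysis and hypoxia, interferon and cholesterol synthesis genes.

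**Figure D2:**
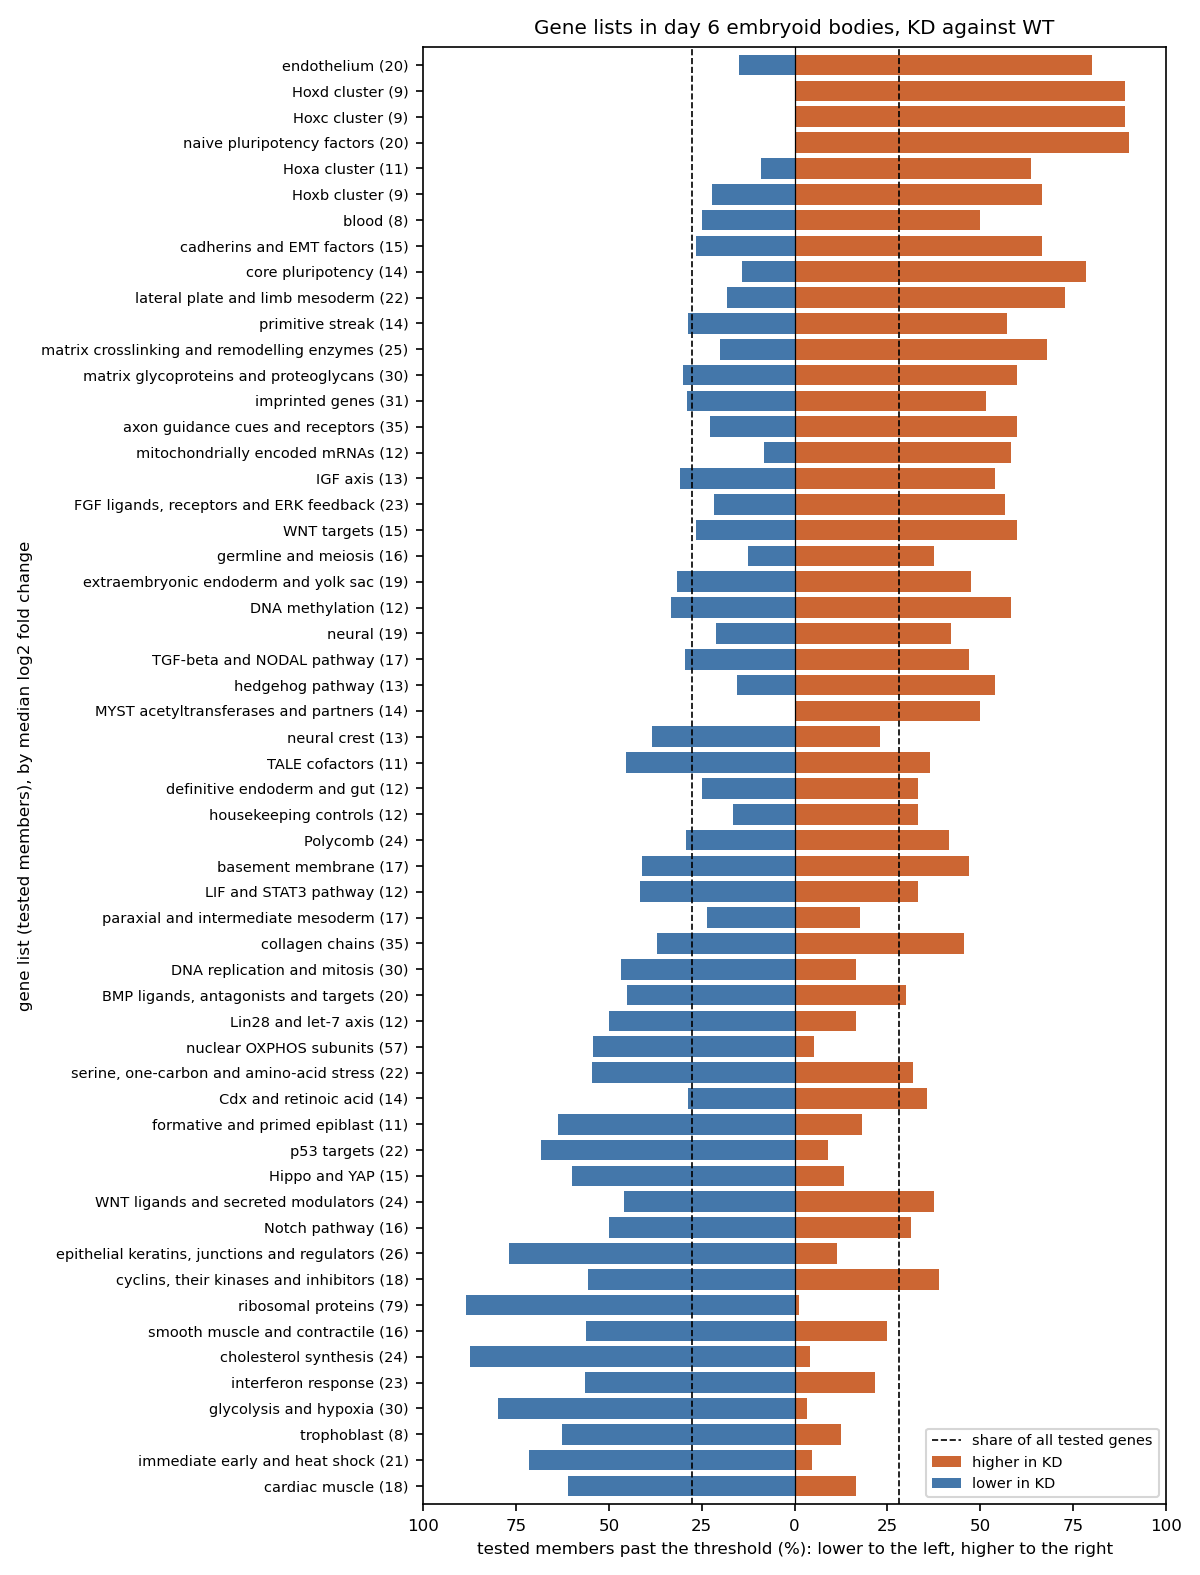
Percent of the tested members of each of the 56 lists that were higher (right) or lower (left) in KD EBs, with the lists ordered by median log2 fold change and the number of tested members in brackets. Dashed lines give the shares of all tested genes, 28.0% higher and 27.7% lower.

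Factors of naive pluripotency, the ground state in which ESCs are kept by LIF and the inhibitors, were higher in KD EBs. Of 20 tested members 18 rose and 0 fell (median log2 fold change 1.53), and the summed level ran from 446 to 448 CPM in the WT libraries and from 823 to 848 CPM in the KD libraries. The nuclear receptor gene Esrrb stood at 6.29, 7.82 and 6.10 CPM in the WT libraries and 37.2, 47.7 and 41.2 CPM in the KD libraries (log2 fold change 2.64 ± 0.11 SE, adjusted p = 3.34e-18 by edgeR). Tdh, which encodes the threonine dehydrogenase on which mouse ESCs depend, stood at 3.49, 3.71 and 2.59 CPM in the WT libraries and 46.99, 45.4 and 42.7 CPM in the KD libraries (log2 fold change 3.79 ± 0.11 SE, adjusted p = 5.45e-23 by edgeR). Both genes had every KD library above every WT library, by several-fold. Klf2 (2.61, SE 0.11), Nr5a2 (2.60, SE 0.22) and Klf4 (1.17, SE 0.10) also rose, while Nanog (−0.10, SE 0.06, edgeR adjusted p = 0.182) did not pass the test. In ESCs, before differentiation, the median of these 20 genes was 0.15 between KD and WT.

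Genes of the general pluripotency network rose as well, though less. Of 14 tested members 11 rose and 2 fell (median log2 fold change 0.86). The octamer factor gene Pou5f1 was at 50.5 ± 4.59 CPM in WT and 62.4 ± 3.52 CPM in KD EBs (SD, n = 3 per group here and below) (log2 fold change 0.30 ± 0.06 SE, adjusted p = 1.55e-04 by edgeR), and its partner Sox2 at 46.2 ± 0.961 CPM in WT and 88.4 ± 7.15 CPM in KD EBs (log2 fold change 0.93 ± 0.06 SE, adjusted p = 3.64e-15 by edgeR). Dppa2 and Dppa4, neighbouring genes whose products bind DNA together in ESCs, rose by 3.30 (SE 0.34) and 1.52 (SE 0.14), the transposon-derived L1td1 by 1.25 (SE 0.07) and the NODAL-related ligand gene Gdf3 by 1.32 (SE 0.20). Exceptions were Sall4 (−0.16, SE 0.03) and Zscan10 (−0.32, SE 0.05), which fell.

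Genes that mark the step after the naive state went mostly the other way. Of the formative and primed epiblast genes, 2 rose (1 without WT 3 or KD 1) and 7 fell of 11 (median −0.27). The POU factor gene Pou3f1 stood at 27.99, 29.6 and 29.1 CPM in the WT libraries and 7.39, 8.21 and 7.24 CPM in the KD libraries (log2 fold change −1.93 ± 0.10 SE, adjusted p = 5.22e-17 by edgeR), with no overlap. Grhl2 (−0.71, SE 0.09), Zic5 (−0.64, SE 0.10), Zic2 (−0.50, SE 0.07) and Fgf5 (−0.25, SE 0.09) fell, whereas Foxd3 (2.09, SE 0.24) rose and Otx2 (0.02, SE 0.08, edgeR adjusted p = 0.833) did not pass. In the axis of the RNA-binding protein LIN28 and the let-7 microRNAs, which times the exit from the embryonic programme, Lin28a was at 523 ± 11.1 CPM in WT and 358 ± 7.46 CPM in KD EBs (log2 fold change −0.55 ± 0.03 SE, adjusted p = 7.69e-16 by edgeR). The let-7 target Trim71, which encodes an RNA-binding ubiquitin ligase, stood at 426, 419.9 and 406 CPM in the WT libraries and 179, 175 and 178 CPM in the KD libraries (log2 fold change −1.23 ± 0.03 SE, adjusted p = 7.60e-24 by edgeR). Other let-7 targets differed in direction: Nr6a1 (−0.95, SE 0.04) and Arid3b (−0.60, SE 0.03) fell, Hmga2 (1.05, SE 0.03) and Igf2bp3 (0.17, SE 0.04) rose, and Lin28b (−0.15, SE 0.08, edgeR adjusted p = 0.128) did not pass.

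The LIF pathway, which sustains naive cells through the receptor subunits LIFR and GP130 and the factor STAT3, did not move as a block (4 higher and 5 lower of 12). The ligand gene fell (−1.26, SE 0.16), as did the feedback inhibitor Socs3 (−0.88, SE 0.10) and the kinase Pim3 (−1.25, SE 0.04). The GP130 gene rose (0.53, SE 0.04), as did Jak2 (0.46, SE 0.08).

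**Figure D3:**
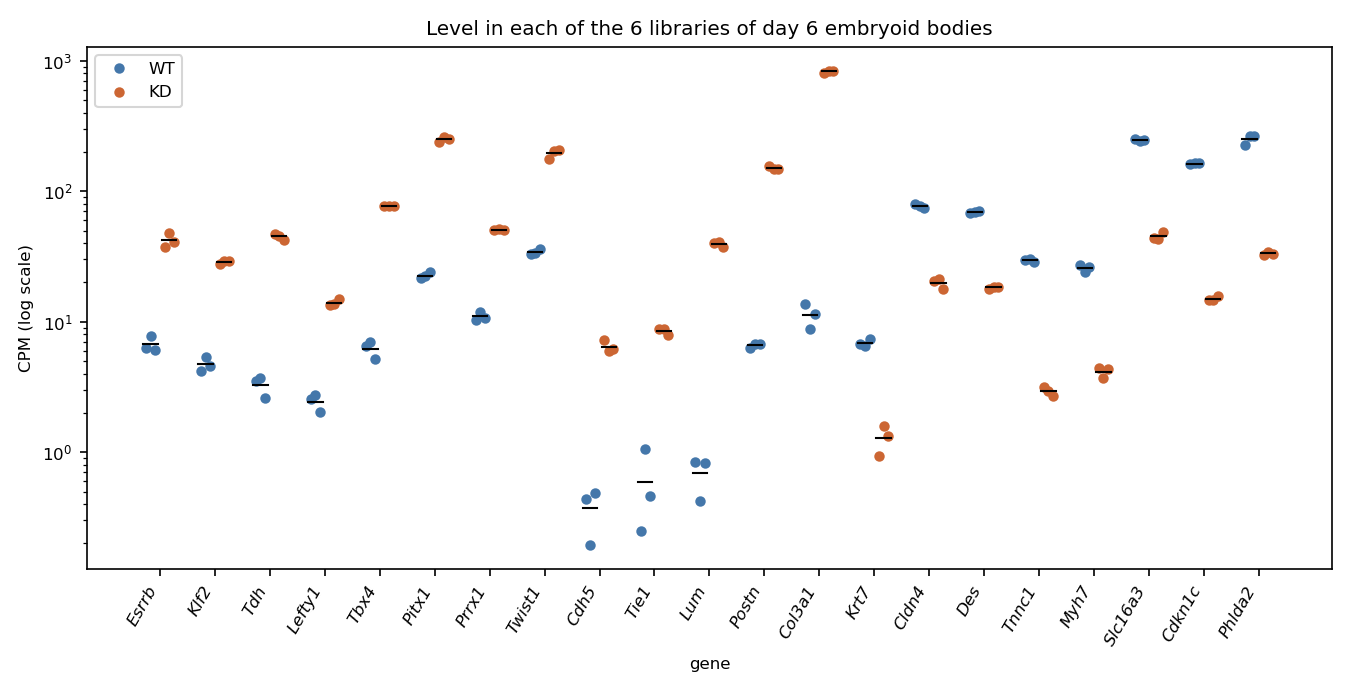
CPM on a log scale (vertical axis) of 21 genes (horizontal axis) in the 3 WT and 3 KD libraries of day 6 EBs, 1 point per library, with the group mean as a line. KD points lie above WT points from Esrrb to Col3a1 and below them from Krt7 to Phlda2, with no overlap in any of the 21. The 21 genes were chosen for display with their values known. Of all tested genes, 61.2% had no overlap between KD and WT.

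Hox genes encode the factors that give cells their position along the body axis. They lie in 4 clusters, and within a cluster a higher paralogue number goes with a more posterior domain of expression. In KD EBs every tested gene numbered 5 or above rose, in all 4 clusters. In the Hoxa cluster 7 of 11 genes rose and 1 fell (median 1.52), in Hoxb 6 and 2 of 9 (median 1.34), in Hoxc 8 and 0 of 9 (median 1.87) and in Hoxd 8 and 0 of 9 (median 1.99, or 1.93 with Hoxd12, at 0 in WT, set at its lower bound). Hoxb1 (−1.18, SE 0.19), at the anterior end of its cluster, and Hoxb4 (−0.38, SE 0.11) fell, and Hoxd1 (−0.15, SE 0.09, edgeR adjusted p = 0.163) did not pass.

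Hoxa13, the last gene of its cluster, stood at 2.46, 1.62 and 1.35 CPM in the WT libraries and 26.6, 25.5 and 24.4 CPM in the KD libraries (log2 fold change 3.82 ± 0.15 SE, adjusted p = 1.09e-18 by edgeR). Hoxd13 stood at 2.27, 2.16 and 2.85 CPM in the WT libraries and 23.6, 23.5 and 23.97 CPM in the KD libraries (log2 fold change 3.28 ± 0.13 SE, adjusted p = 1.24e-19 by edgeR). Hoxc10 stood at 1.12, 0.808 and 1.29 CPM in the WT libraries and 16.8, 18.9 and 19.7 CPM in the KD libraries (log2 fold change 4.09 ± 0.17 SE, adjusted p = 3.72e-19 by edgeR). All 3 were low in every WT library and many-fold higher in every KD library. The genes next to them moved likewise, with Hoxa11 (4.04, SE 0.21), Hoxa10 (3.84, SE 0.11), Hoxa9 (2.87, SE 0.09), Hoxd11 (4.30, SE 0.26), Hoxd10 (4.27, SE 0.26), Hoxc11 (5.70, SE 0.25), Hoxb8 (2.80, SE 0.12) and Hoxb9 (2.35, SE 0.16). Hoxc12 and the long noncoding RNA gene Hotair, which lies between Hoxc11 and Hoxc12, had 0 counts in each WT library; in the KD libraries Hoxc12 had 12, 25 and 26 counts (at least 7.2-fold higher) and Hotair 19, 13 and 15 (at least 5.3-fold higher). Hotair and Hoxc12 were chosen after their values were seen. Hox clusters hold antisense transcripts, which counts without strand cannot separate.

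**Figure D4:**
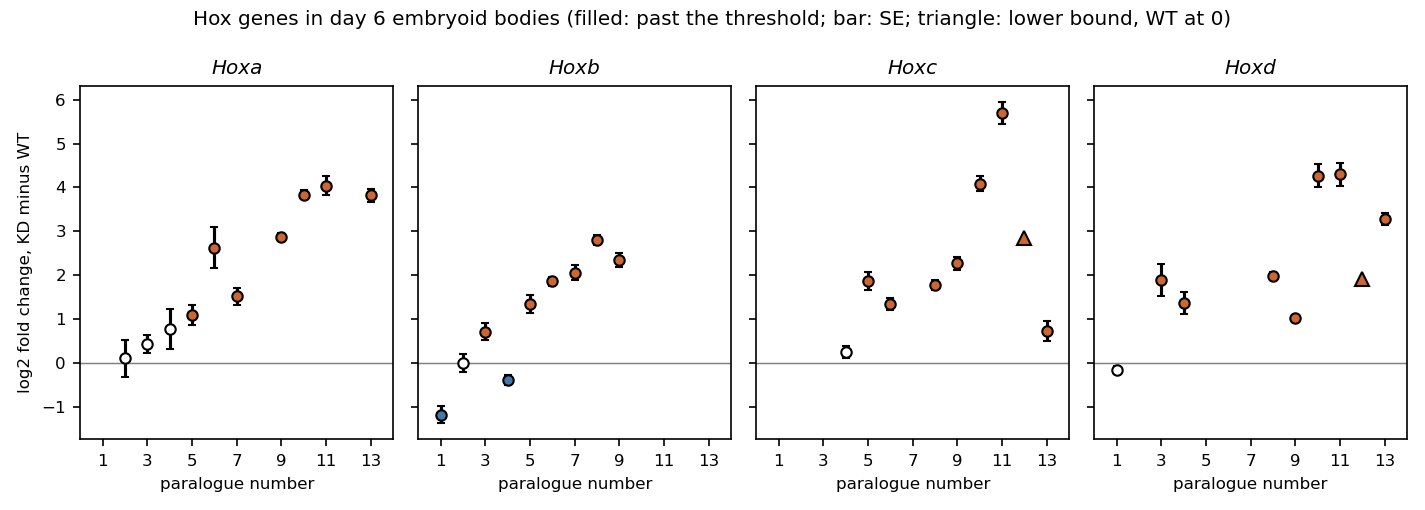
Log2 fold change (vertical axis, KD minus WT) of most of the tested genes of the 4 Hox clusters by paralogue number (horizontal axis), with SE. Of the genes plotted, Hoxb1, Hoxb4 and Hoxd1 lie below 0, Hoxb2 lies at 0 (−0.01), and the genes numbered 5 to 13 lie above it, all of them past the threshold; triangles mark the lower bounds of Hoxc12 and Hoxd12.

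The TALE proteins bind DNA together with Hox proteins. Their genes divided, with Meis1 (1.06, SE 0.08), Meis2 (0.60, SE 0.05), Meis3 (0.44, SE 0.07) and Pknox1 (0.84, SE 0.09) higher and Pbx2 (−0.40, SE 0.04), Pbx4 (−0.85, SE 0.20), Pknox2 (−0.94, SE 0.08) and Tgif1 (−0.35, SE 0.05) lower. Cdx factors and retinoic acid act upstream of Hox genes in the embryo. Cdx2 (1.01, SE 0.06) rose and Cdx1 (−0.19, SE 0.49, edgeR adjusted p = 0.77) did not pass. Among genes of retinoid handling, the cellular retinoic acid binding protein gene Crabp1 stood at 136, 141 and 134 CPM in the WT libraries and 28.8, 30.6 and 25.4 CPM in the KD libraries (log2 fold change −2.27 ± 0.06 SE, adjusted p = 4.36e-24 by edgeR), with every KD library below every WT library. Of the retinoic acid hydroxylases Cyp26a1 (0.94, SE 0.06) rose and Cyp26b1 (−1.35, SE 0.21) fell. The receptor gene Rara (0.57, SE 0.05) rose, as did Gdf11 (1.12, SE 0.10), a ligand of trunk-to-tail patterning.

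Primitive streak genes, which mark the cells that turn into mesoderm and endoderm, rose in 8 of 14 cases and fell in 4 (median 0.63). The homeobox gene Mixl1 stood at 1.84, 1.07 and 1.58 CPM in the WT libraries and 10.1, 9.53 and 9.46 CPM in the KD libraries (log2 fold change 2.69 ± 0.20 SE, adjusted p = 6.52e-13 by edgeR). Eomes (0.92, SE 0.08), T (0.93, SE 0.18) and Sp5 (1.52, SE 0.12) rose with it. The ligand genes Fgf8 (−1.63, SE 0.11) and Wnt3 (−0.96, SE 0.08) of the same region fell, as did Lhx1 (−0.56, SE 0.11).

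Lateral plate mesoderm gives rise to the limbs, the body wall and the walls of the gut, and its genes rose in 16 of 22 cases and fell in 4 (median 0.74). The largest rises were those of 2 hindlimb factors. Tbx4, on chromosome 11 from 85886422 to 85916097, stood at 6.51, 6.98 and 5.15 CPM in the WT libraries and 76.8, 76.7 and 76.7 CPM in the KD libraries (log2 fold change 3.63 ± 0.09 SE, adjusted p = 4.73e-25 by edgeR). Pitx1, on chromosome 13 from 55825051 to 55836192, stood at 21.5, 22.3 and 23.9 CPM in the WT libraries and 239, 261 and 250.5 CPM in the KD libraries (log2 fold change 3.47 ± 0.05 SE, adjusted p = 8.35e-31 by edgeR). The KD libraries lay within a narrow range for both, 12.4-fold and 11.1-fold above the mean of the WT libraries. Foxf2 (2.54, SE 0.15), Twist1 (2.52, SE 0.06), Hand2 (2.19, SE 0.05) and Prrx1 (2.20, SE 0.08) rose too; the last is a limb mesenchyme factor named after its values were seen. Hand1 fell (log2 fold change −0.66 ± 0.03 SE, adjusted p = 9.28e-19 by edgeR), from 920.1 ± 9.38 CPM to 584 ± 14.2 CPM, and Gata4 (−0.11, SE 0.04) fell slightly. Tbx5, the forelimb and heart counterpart of Tbx4, rose by 0.44 (SE 0.14) and was likewise chosen after the fact.

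Paraxial and intermediate mesoderm, the sources of somites and kidney, showed no such shift, with 3 of 17 genes higher, 4 lower and 4 listed genes too low to test. The Notch ligand gene Dll3 (−2.09, SE 0.21) fell, as did Sall1 (−0.34, SE 0.05) and Eya2 (−0.43, SE 0.11), while the somite factors Tbx6 (−0.23, SE 0.31, edgeR adjusted p = 0.562) and Meox1 (0.004, SE 0.56, edgeR adjusted p = 0.997) did not pass at 0.258 to 2.30 CPM over the 6 libraries.

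Endothelial genes had the highest median of the lists. Of 20 tested members 16 rose and 3 fell (median log2 fold change 2.38), with summed levels from 295 to 304 CPM in the WT libraries and from 459 to 472 CPM in the KD libraries. VE-cadherin, the adhesion molecule that defines endothelium, is encoded by Cdh5, which stood at 0.436, 0.194 and 0.489 CPM in the WT libraries and 7.20, 5.95 and 6.21 CPM in the KD libraries (log2 fold change 4.08 ± 0.29 SE, adjusted p = 1.83e-13 by edgeR). The receptor gene Tie1 stood at 0.249, 1.07 and 0.460 CPM in the WT libraries and 8.85, 8.74 and 7.97 CPM in the KD libraries (log2 fold change 3.85 ± 0.30 SE, adjusted p = 2.79e-10 by edgeR). Both were near the lower end of what these libraries measure in WT EBs, and every KD library lay above every WT library. The transcription factor gene Fli1 (2.85, SE 0.22) and the VEGF receptor gene Kdr (1.04, SE 0.06) rose. Ligands differed: Angpt1 (5.85, SE 0.24) and Vegfc (3.30, SE 0.10) rose, while Vegfa fell (log2 fold change −0.47 ± 0.04 SE, adjusted p = 4.85e-11 by edgeR). Pecam1, which ESCs also express, fell from 36.1 ± 2.71 to 16.2 ± 2.76 CPM (log2 fold change −1.15 ± 0.10 SE, adjusted p = 2.04e-10 by edgeR), and Flt4 (−0.48, SE 0.09) fell. The sialomucin gene Emcn, chosen after its values were seen, had 0 counts in each WT library and 50, 37 and 20 in the KD libraries, at least 12.2-fold higher.

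Blood genes were sparse, with 9 of 17 listed genes too low to test, among them the embryonic globins Hbb-bh1, Hbb-y and Hba-x. Of the 8 tested, 4 rose and 2 fell (1 without WT 2, KD 1 or KD 3). Runx1, a factor of the first blood stem cells, rose, with 5.60 ± 1.64 CPM in WT and 15.9 ± 1.28 CPM in KD EBs, as did Tal1 (2.19, SE 0.39), which specifies both blood and endothelium, and the erythroid factor Gata1 (−1.93, SE 0.66) fell with 0.984 ± 0.371 CPM in WT and 0.258 ± 0.263 CPM in KD EBs.

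Cardiac muscle genes fell most of all lists (median −1.11). Of 18 tested members 11 fell and 3 rose. The 3 became 0 without KD 1 and 1 without WT 1, without WT 3 or in a fit of all 12 libraries. The summed level ran from 219.6 to 234 CPM in the WT libraries and from 96.9 to 102 CPM in the KD libraries. Tnnc1, which encodes the calcium-binding troponin C of slow and cardiac muscle (on chromosome 14 from 31208312 to 31211729), stood at 29.7, 30.01 and 28.8 CPM in the WT libraries and 3.17, 2.92 and 2.68 CPM in the KD libraries (log2 fold change −3.33 ± 0.11 SE, adjusted p = 2.62e-21 by edgeR). Myh7, a ventricular myosin heavy chain gene, stood at 27.3, 23.8 and 26.5 CPM in the WT libraries and 4.41, 3.71 and 4.32 CPM in the KD libraries (log2 fold change −2.64 ± 0.11 SE, adjusted p = 1.40e-18 by edgeR). Myl7, an atrial light chain gene, stood at 8.13, 8.82 and 9.12 CPM in the WT libraries and 0.900, 1.25 and 1.03 CPM in the KD libraries (log2 fold change −3.03 ± 0.21 SE, adjusted p = 1.04e-13 by edgeR). The 3 genes fell in step and without overlap. Myl4 (−2.81, SE 0.25) and Myh6 (−2.62, SE 0.23) fell as well. Of the factor genes on the list, Nkx2-5 (0.07, SE 0.18, edgeR adjusted p = 0.762) did not pass and Mef2c (0.58, SE 0.20) rose, a call lost without WT 3 or KD 1.

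Smooth muscle and contractile genes divided, with 4 higher and 9 lower of 16. Smooth muscle actin, Acta2, stood at 140.3, 142 and 141 CPM in the WT libraries and 519, 527 and 534 CPM in the KD libraries (log2 fold change 1.90 ± 0.03 SE, adjusted p = 4.88e-29 by edgeR). Synpo2 (2.35, SE 0.18) and Cald1 (0.59, SE 0.03) rose with it. Desmin, the intermediate filament of muscle, moved against it, since Des stood at 67.6, 68.96 and 70.7 CPM in the WT libraries and 17.9, 18.6 and 18.6 CPM in the KD libraries (log2 fold change −1.91 ± 0.07 SE, adjusted p = 3.99e-21 by edgeR). The coactivator gene Myocd (−1.48, SE 0.21), calponin Cnn1 (−1.67, SE 0.14) and Lmod1 (−1.20, SE 0.23) fell, and Tagln (−0.42, SE 0.43, edgeR adjusted p = 0.434) did not pass, with 0.956 ± 0.155 CPM in WT and 0.713 ± 0.0693 CPM in KD EBs.

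Collagen genes moved in both directions (16 higher and 13 lower of 35, median −0.04), and chains that assemble with each other did not move alike. Fibrillar type I collagen is built from Col1a1 and Col1a2: Col1a1 (−0.04, SE 0.03, edgeR adjusted p = 0.308) did not pass, while Col1a2 stood at 18.2, 15.5 and 18.5 CPM in the WT libraries and 80.9, 79.3 and 80.95 CPM in the KD libraries (log2 fold change 2.21 ± 0.07 SE, adjusted p = 2.69e-22 by edgeR). Type VI collagen is built from 3 chains: Col6a3 rose and Col6a2 fell. Col6a3 stood at 0.841, 0.517 and 0.604 CPM in the WT libraries and 10.7, 9.36 and 9.67 CPM in the KD libraries (log2 fold change 3.92 ± 0.22 SE, adjusted p = 8.64e-16 by edgeR). Col6a2 stood at 13.1, 12.5 and 13.98 CPM in the WT libraries and 4.13, 4.34 and 3.74 CPM in the KD libraries (log2 fold change −1.70 ± 0.14 SE, adjusted p = 1.18e-11 by edgeR). The 2 genes thus parted without overlap in either. Col5a2 (3.97, SE 0.19), Col14a1 (3.27, SE 0.15) and Col3a1 (6.19, SE 0.15), the fibrillar chain on chromosome 1 from 45311538 to 45349706, rose. The cartilage chain Col2a1 (−1.55, SE 0.08), the short-chain Col8a2 (−2.90, SE 0.09) and the membrane-bound Col13a1 (−1.28, SE 0.15) fell.

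Of the other matrix proteins 18 of 30 rose and 9 fell (median 0.58). The small leucine-rich proteoglycans bind collagen fibrils. Of these, Lum stood at 0.841, 0.420 and 0.834 CPM in the WT libraries and 40.3, 41.1 and 37.5 CPM in the KD libraries (log2 fold change 5.81 ± 0.14 SE, adjusted p = 1.73e-24 by edgeR). Dcn stood at 0.374, 0.581 and 0.633 CPM in the WT libraries and 9.34, 8.57 and 8.85 CPM in the KD libraries (log2 fold change 4.06 ± 0.23 SE, adjusted p = 1.56e-15 by edgeR). Biglycan, Bgn, fell from 7.03 ± 0.421 to 2.06 ± 0.436 CPM (log2 fold change −1.77 ± 0.20 SE, adjusted p = 8.67e-09 by edgeR). Fibronectin, the cell-binding glycoprotein of mesenchyme, rose at a high level (Fn1, 939.9 ± 14.2 CPM in WT and 2385 ± 39.7 CPM in KD EBs). Ccn1 and Ccn2, matricellular targets of the coactivator YAP, changed by −1.23 (SE 0.04) and −1.05 (SE 0.06). Enzymes that trim and crosslink matrix rose in 17 of 25 cases and fell in 5, among the rises the protease genes Mmp9 (2.07, SE 0.10) and Adamts1 (2.36, SE 0.08), the procollagen processing enhancer Pcolce (2.26, SE 0.11) and the protease inhibitor Timp3 (1.82, SE 0.09).

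In basement membranes, the sheets under epithelia, the 3 chains of the first laminin of the embryo did not move together. Lama1 (1.44, SE 0.05) rose, while Lamb1 (−0.04, SE 0.03, edgeR adjusted p = 0.237) and Lamc1 (0.07, SE 0.03, edgeR adjusted p = 0.0547) did not pass; Lama5 (−0.68, SE 0.03) fell. Lamb1 was called with upper-quartile normalization and had the other sign in a fit of all 12 libraries, and Lamc1 was called with library size only, with a replicate block and without WT replicate 1. The linker gene Nid1 (0.996, SE 0.04) rose and the receptor gene Dag1 (−0.71, SE 0.03) fell. FRAS1 and the FREM proteins form a complex between skin and dermis: Frem1 (3.11, SE 0.09) and Fras1 (0.99, SE 0.05) rose and Frem2 (−0.55, SE 0.04) fell.

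Of cadherins, mesenchymal markers and factors of the epithelial-mesenchymal transition, 15 were tested, of which 10 rose and 4 fell (2 without KD 3). E-cadherin, Cdh1, stood at 333, 317 and 319 CPM in the WT libraries and 172, 166 and 159 CPM in the KD libraries (log2 fold change −0.96 ± 0.04 SE, adjusted p = 3.51e-20 by edgeR). N-cadherin, Cdh2, stood at 93.4, 77.7 and 79.4 CPM in the WT libraries and 266, 273 and 273 CPM in the KD libraries (log2 fold change 1.70 ± 0.06 SE, adjusted p = 6.54e-13 by edgeR). The mesenchymal cadherin gene Cdh11 (2.03, SE 0.05), the intermediate filament Vim (0.98, SE 0.03) and the repressor of epithelial genes Zeb1 (1.33, SE 0.07) rose, while the surface glycoprotein gene Thy1 (−2.07, SE 0.14) and the repressor of E-cadherin Snai1 (−0.19, SE 0.07; call lost without WT 1 or KD 3) fell. Of epithelial keratin, junction and regulator genes, 26 were tested, of which 3 rose and 20 fell (median log2 fold change −0.43). Claudin-4, a tight junction protein, is encoded by Cldn4, which stood at 79.8, 76.9 and 74.5 CPM in the WT libraries and 20.5, 21.1 and 17.7 CPM in the KD libraries (log2 fold change −1.97 ± 0.07 SE, adjusted p = 5.44e-21 by edgeR). The simple-epithelium keratins Krt8 (−0.42, SE 0.03) and Krt18 (−0.77, SE 0.03) fell at high levels, Krt7 (−2.42, SE 0.22) at a low one, and Cldn3 (−1.67, SE 0.16), the protease gene Prss8 (−1.51, SE 0.08) and Epcam (−0.44, SE 0.04) fell with them. Grhl3 (0.73, SE 0.14) and Esrp2 (0.48, SE 0.13), regulators of surface epithelium and of epithelial splicing, were among the 3 that rose. Log2 fold changes over the list ran from −2.42 to 3.63.

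Definitive endoderm and gut genes had 4 higher and 3 lower of 12, shares near the background. Sox17 (0.17, SE 0.05) and Cxcr4 (0.49, SE 0.09) rose and Foxa2 (−0.23, SE 0.06) and Cpm (−0.70, SE 0.04) fell, each by less than 1. The widest changes of the list, picked out after their values were seen, were those of the gut hormone gene Pyy (−3.91, SE 0.30) and of the factor gene Onecut1 (1.72, SE 0.48). Pyy stood at 5.86 ± 0.153 CPM in WT and 0.382 ± 0.229 CPM in KD EBs, and Onecut1 at 0.364 ± 0.120 CPM and 1.22 ± 0.367 CPM. Yolk sac and extraembryonic endoderm genes had 9 higher and 6 lower of 19: the adaptor Dab2 (1.51, SE 0.04) and the transport protein Ttr (1.86, SE 0.04) rose. The endocytic receptor gene Lrp2, whose product works with DAB2, stood at 169, 174 and 171 CPM in the WT libraries and 67.4, 63.9 and 60.8 CPM in the KD libraries (log2 fold change −1.42 ± 0.04 SE, adjusted p = 2.45e-22 by edgeR). The fetal serum protein Afp (0.01, SE 0.17, edgeR adjusted p = 0.971) did not pass.

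Neural genes had 8 higher and 4 lower of 19, with 6 listed genes too low to test. Tubb3 (1.34, SE 0.14) and Ncam1 (1.12, SE 0.08) rose, Stmn2 (−0.72, SE 0.04) and Sox1 (−2.38, SE 0.43) fell, and Pax6 (−0.02, SE 0.53, edgeR adjusted p = 0.978) did not pass, with 0.477 ± 0.133 CPM in WT and 0.471 ± 0.0142 CPM in KD EBs. Sox10, a factor of migrating neural crest and glia, fell, with 7.61 ± 0.573 CPM in WT and 0.439 ± 0.393 CPM in KD EBs (log2 fold change −4.13 ± 0.37 SE, adjusted p = 5.63e-08 by edgeR). Tfap2a (−1.40, SE 0.16) and Erbb3 (−0.81, SE 0.06) fell with it, while Foxd3 (2.09, SE 0.24) and Ednrb (1.29, SE 0.17) of the same list rose. Of the trophoblast genes 5 of 8 fell, among them Gata2 (−1.04, SE 0.13), Gata3 (−0.67, SE 0.12) and Krt7 (−2.42, SE 0.22), and the placental gene Plac1 (2.48, SE 0.10) on the X chromosome rose. Germline and meiosis genes had 6 higher and 2 lower of 16 (3 higher without KD 3, 4 without WT 2), with Dmc1 (−1.41, SE 0.14), a recombinase of meiosis, lower and Nanos3 (3.54, SE 0.69) higher at levels of 0.0886 ± 0.103 CPM in WT and 1.10 ± 0.522 CPM in KD EBs.

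Signalling genes changed in composition more than in one direction. Among WNT ligands and the secreted proteins that modulate them, 9 rose and 11 fell of 24. Wnt5a, a ligand of the mesenchyme that acts mainly outside the beta-catenin route, stood at 30.7, 30.8 and 32.6 CPM in the WT libraries and 122, 114 and 116 CPM in the KD libraries (log2 fold change 1.91 ± 0.05 SE, adjusted p = 8.11e-24 by edgeR). Wnt9b, a ligand of epithelial ducts, stood at 24.4, 22.2 and 22.5 CPM in the WT libraries and 2.51, 1.77 and 2.04 CPM in the KD libraries (log2 fold change −3.44 ± 0.14 SE, adjusted p = 1.49e-19 by edgeR). Neither ligand gene had overlapping groups. Wnt2 (1.28, SE 0.11) and the enhancer Rspo3 (2.000, SE 0.13) rose and Wnt6 (−1.25, SE 0.18) and Wnt2b (−0.99, SE 0.31) fell. The inhibitors Dkk2 (2.85, SE 0.24) and Sfrp1 (1.69, SE 0.05) rose and Frzb (−0.74, SE 0.08) fell. Among targets of the pathway Sp5 (1.52, SE 0.12), Myc (1.06, SE 0.08), Axin2 (0.23, SE 0.06) and Lef1 (0.26, SE 0.07) rose and Msx2 (−1.34, SE 0.04), Tcf7 (−0.54, SE 0.05) and Rnf43 (−0.66, SE 0.12) fell, in all 9 higher and 4 lower of 15.

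Of 20 tested genes of the BMP pathway 6 rose and 9 fell, with log2 fold changes from −1.52 to 3.93 over the list. The ligands Bmp7 (−0.89, SE 0.06) and Bmp6 (−1.52, SE 0.25) and the antagonist Nog (−1.17, SE 0.11) fell. Bmp4 (0.03, SE 0.04, edgeR adjusted p = 0.532) did not pass and Bmp2 (0.28, SE 0.07) rose slightly. In the related TGF-beta and NODAL pathway 8 of 17 genes rose and 5 fell. The NODAL inhibitor gene Lefty1 stood at 2.55, 2.75 and 2.04 CPM in the WT libraries and 13.5, 13.7 and 14.9 CPM in the KD libraries (log2 fold change 2.52 ± 0.16 SE, adjusted p = 1.18e-14 by edgeR). All its KD libraries lay above all WT libraries, and so did those of the receptor Tgfbr1 (1.33, SE 0.05) and the latent-complex protein Ltbp1 (1.24, SE 0.06).

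FGF signalling works through ERK, which induces its own inhibitors. The feedback inhibitor gene Spry4 (1.48, SE 0.10) and the ETS factor genes Etv4 (1.20, SE 0.10) and Etv5 (0.85, SE 0.05) rose, as did the ligand gene Fgf4 (1.85, SE 0.22). The receptor genes Fgfr3 (−1.13, SE 0.05) and Fgfr1 (−0.72, SE 0.03) fell, the latter at 406 ± 1.36 CPM in WT and 247 ± 7.93 CPM in KD EBs. Of FGF ligand, receptor and ERK feedback genes, 23 were tested, of which 13 rose and 5 fell (median log2 fold change 0.29). In the Notch pathway the receptor gene Notch1 stood at 70.05, 64.99 and 67.9 CPM in the WT libraries and 22.5, 19.02 and 21.4 CPM in the KD libraries (log2 fold change −1.69 ± 0.07 SE, adjusted p = 3.94e-19 by edgeR). The ligand gene Jag2 stood at 66.2, 73.6 and 70.1 CPM in the WT libraries and 20.4, 23.1 and 23.2 CPM in the KD libraries (log2 fold change −1.65 ± 0.07 SE, adjusted p = 3.90e-19 by edgeR). Dll1 (−1.35, SE 0.22) and Lfng (−0.94, SE 0.16) also fell, while Notch2 (0.36, SE 0.04), Hes1 (0.38, SE 0.05) and Hey2 (1.34, SE 0.11) rose, and Notch3 (0.02, SE 0.04, edgeR adjusted p = 0.698) did not pass. In the hedgehog pathway the ligand gene Ihh (1.65, SE 0.08) and the coreceptor gene Gas1 (1.63, SE 0.06) rose, with Gli2 (0.72, SE 0.06) and Gli3 (0.56, SE 0.05), and Cdon (−0.49, SE 0.05) fell.

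The growth factor gene Igf2 rose by 0.57 (SE 0.02), and its clearance receptor Igf2r by 1.01 (SE 0.03), with 747 ± 13.4 CPM in WT and 1501 ± 18.8 CPM in KD EBs. The binding protein gene Igfbp5 stood at 100.3, 104 and 105 CPM in the WT libraries and 520.0, 508 and 520.3 CPM in the KD libraries (log2 fold change 2.32 ± 0.03 SE, adjusted p = 1.71e-30 by edgeR). Igfbp3 (−1.05, SE 0.07) fell and Igf1r (0.002, SE 0.04, edgeR adjusted p = 0.978), the signalling receptor, did not pass. In the Hippo pathway the coactivator gene Yap1 (0.03, SE 0.03, edgeR adjusted p = 0.495) and Tead1 (−0.05, SE 0.03, edgeR adjusted p = 0.159) did not pass; Tead1 was called with upper-quartile normalization and without KD replicate 1, and had the other sign in a fit of all 12 libraries. Wwtr1 (−0.36, SE 0.05) fell, as did Amotl2 (−1.15, SE 0.03), Ajuba (−0.60, SE 0.04) and Lats2 (−0.51, SE 0.09), which YAP induces or which restrain it, whereas the angiomotin gene Amot on the X chromosome rose (1171 ± 25.95 CPM in WT and 1854 ± 64.3 CPM in KD EBs). Guidance cues of axons and vessels rose in 21 of 35 cases and fell in 8: Nrp2 (2.32, SE 0.05), Sema6d (2.22, SE 0.09), Ntn1 (1.99, SE 0.17) and Epha7 (1.48, SE 0.12) rose and Slit1 (−1.68, SE 0.13), Efna1 (−1.28, SE 0.07) and Sema3f (−1.07, SE 0.07) fell, while Slit2 (0.80, SE 0.06) and Slit3 (0.71, SE 0.04) rose.

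Imprinted genes, expressed from 1 parental allele, rose in 16 of 31 cases and fell in 9 (median 0.51), with paternally and maternally expressed genes in both directions. Paternally expressed Mest stood at 789, 818 and 804 CPM in the WT libraries and 2924, 2776 and 2709.9 CPM in the KD libraries (log2 fold change 1.80 ± 0.03 SE, adjusted p = 5.32e-30 by edgeR). Nnat (1.93, SE 0.07), Magel2 (1.65, SE 0.08), Ndn (1.45, SE 0.04), Peg10 (0.94, SE 0.03), Peg3 (0.81, SE 0.02) and Igf2 rose with it. Paternally expressed Plagl1 (−1.53, SE 0.48), Usp29 (−0.22, SE 0.05) and Snrpn (−0.29, SE 0.07) fell. Maternally expressed Phlda2, a growth restrainer of the placenta on chromosome 7 from 143501545 to 143503150, stood at 226, 263 and 264 CPM in the WT libraries and 32.6, 34.3 and 33.3 CPM in the KD libraries (log2 fold change −2.91 ± 0.05 SE, adjusted p = 9.40e-22 by edgeR). Its neighbour Cdkn1c stood at 160.3, 164 and 165 CPM in the WT libraries and 14.6, 14.6 and 15.6 CPM in the KD libraries (log2 fold change −3.45 ± 0.05 SE, adjusted p = 2.49e-30 by edgeR). Both genes had all KD libraries below all WT libraries. In a normalization of all 12 libraries, Cdkn1c was also lower in KD ESCs, at 1.22 ± 0.303 CPM against 4.44 ± 0.898 CPM in WT ESCs. Slc22a18 (−2.48, SE 0.36) and Ascl2 (−1.91, SE 0.32) of the same domain fell, whereas maternally expressed H19 (0.51, SE 0.03), Meg3 (0.68, SE 0.14) and Igf2r rose. Kcnq1ot1, the paternally expressed RNA that silences this domain in cis, rose by 0.93 (SE 0.09). Grb10 (−1.43, SE 0.07) fell. Plagl1, Usp29, Slc22a18, Ascl2, Meg3 and Kcnq1ot1 were chosen after their values were seen.

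Of the genes for the MYST acetyltransferases and their partners 7 of 14 rose and 0 fell. The scaffold gene Brpf3 stood at 57.6, 55.8 and 56.6 CPM in the WT libraries and 109, 115 and 110.3 CPM in the KD libraries (log2 fold change 0.97 ± 0.05 SE, adjusted p = 1.13e-17 by edgeR). The close relative Kat6a (0.48, SE 0.04), Meaf6 (0.50, SE 0.08) and Jade3 (0.62, SE 0.05) rose with Kat6b, and Brpf1 (0.10, SE 0.05, edgeR adjusted p = 0.106) did not pass. Kat6b and Brpf3 had KD libraries well above the WT libraries. Among Polycomb genes, whose products keep Hox genes silent, 10 of 24 rose and 7 fell. Phf19 (1.64, SE 0.19), Cbx8 (0.99, SE 0.13) and Bmi1 (0.93, SE 0.08) rose, Ezh2 (0.25, SE 0.04) and Eed (0.18, SE 0.05) rose slightly, and Suz12 (−0.32, SE 0.04), Cbx7 (−0.36, SE 0.05) and Phc1 (−0.37, SE 0.04) fell. Of the DNA methylation genes, the de novo enzyme gene Dnmt3b fell, with 461 ± 5.90 CPM in WT and 312 ± 6.19 CPM in KD EBs (log2 fold change −0.56 ± 0.03 SE, adjusted p = 4.28e-16 by edgeR). Dnmt3a (0.16, SE 0.04), Tet3 (0.65, SE 0.05) and the imprint-protecting zinc finger gene Zfp57 (0.77, SE 0.05) rose and Dnmt1 (−0.12, SE 0.03) and Tdg (−0.38, SE 0.06) fell.

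Genes of glycolysis and of the hypoxia response, many of which are induced by the hypoxia-inducible factor HIF-1, made up 1 list of 30. Of these 24 fell and 1 rose (median −0.54). Their summed levels ran from 15040 to 15390 CPM in the WT libraries and from 9923 to 10160 CPM in the KD libraries. The lactate exporter gene Slc16a3, on chromosome 11 from 120948480 to 120960868, stood at 251, 244 and 245 CPM in the WT libraries and 44.2, 43.1 and 49.1 CPM in the KD libraries (log2 fold change −2.44 ± 0.05 SE, adjusted p = 6.39e-28 by edgeR). The glucose transporter gene Slc2a1 stood at 1822, 1802 and 1804 CPM in the WT libraries and 944, 994 and 1027 CPM in the KD libraries (log2 fold change −0.87 ± 0.03 SE, adjusted p = 6.83e-22 by edgeR). Pgk1 (−1.02, SE 0.03), Ldha (−0.87, SE 0.03), Hk2 (−0.78, SE 0.04), Pfkp (−0.76, SE 0.04) and the related transporter Slc2a3 (−0.52, SE 0.02) fell, as did the hypoxia-responsive Ddit4 (−1.48, SE 0.05) and Car9 (−1.71, SE 0.16). The 1 member that rose was Pdk1 (0.54, SE 0.06), whose product diverts pyruvate from mitochondria.

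HIF-1 binds a core of ACGTG. RefSeq promoters (GRCm38.p6, from 250 bases before to 50 after each start site) were found for 27 of the 30 genes. ACGTG on either strand (CACGT on the other) was held by 20 of the 27 (74.1%). The share was 21.8% of 27025 symbols with a promoter and 28.3% of the 11854 tested here. Of the 23 matched genes that fell, 17 held the motif. The list was made to include genes that respond to hypoxia, so its high share is not a test of why they fell. A match is a run of letters, not a binding site. A RefSeq start can lie inside the gene as the count tables annotate it, by 587 bases for Slc16a3, 4329 for Ldha and, of the genes shown further on, 7069 for Dhcr7. Stretches of 80 bases upstream of the RefSeq start of 5 genes that fell are shown 5′ to 3′, on the gene's strand, to let the shared letters be seen, with each ACGTG or CACGT in capitals:
Slc2a1, chr4:119108664-119108743, plus strand: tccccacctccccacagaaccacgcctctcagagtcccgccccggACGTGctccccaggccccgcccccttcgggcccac
Pgk1, chrX:106186924-106187003, plus strand: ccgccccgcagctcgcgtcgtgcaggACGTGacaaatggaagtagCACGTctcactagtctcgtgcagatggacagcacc
Ldha, chr7:46845724-46845803, plus strand: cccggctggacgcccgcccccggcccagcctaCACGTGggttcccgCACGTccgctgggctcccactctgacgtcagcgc
Slc16a3, chr11:120948987-120949066, plus strand: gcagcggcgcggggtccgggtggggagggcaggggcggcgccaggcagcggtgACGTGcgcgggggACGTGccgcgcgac
Ddit4, chr10:59951923-59952002, minus strand: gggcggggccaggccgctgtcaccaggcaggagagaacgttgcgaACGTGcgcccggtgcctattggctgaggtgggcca

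Cholesterol synthesis genes, which the factor SREBP2 switches on when sterols are low, fell in 21 of 24 cases and rose in 1 (median −0.52). Insig1, which holds SREBP2 back in the endoplasmic reticulum when sterols are plentiful, stood at 151, 152 and 160.2 CPM in the WT libraries and 67.6, 63.1 and 67.1 CPM in the KD libraries (log2 fold change −1.23 ± 0.04 SE, adjusted p = 9.30e-21 by edgeR). Dhcr7, the enzyme of the last step, stood at 140.0, 139.8 and 142 CPM in the WT libraries and 67.5, 67.9 and 67.9 CPM in the KD libraries (log2 fold change −1.05 ± 0.04 SE, adjusted p = 1.31e-19 by edgeR). No library of one group overlapped with the other in either gene. Mvd (−1.04, SE 0.06) and the gene of the factor itself, Srebf2 (−0.44, SE 0.03), fell, and Mvk (0.27, SE 0.07) rose.

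SREBP2 acts beside the CCAAT-binding factor NF-Y. RefSeq promoters were found for 16 of the 24 genes, and 15 (93.8%) held CCAAT on either strand. These genes were listed for a shared route, so the share is not a test of why they fell. CCAAT is a common motif, present in 41.1% of all symbols with a promoter and 42.7% of those tested. The windows of 4 genes of the route show its position, in capitals, relative to the bases around it:
Hmgcs1, chr13:119690261-119690340, plus strand: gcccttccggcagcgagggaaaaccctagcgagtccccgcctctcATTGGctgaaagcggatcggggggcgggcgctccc
Mvd, chr8:122443423-122443502, minus strand: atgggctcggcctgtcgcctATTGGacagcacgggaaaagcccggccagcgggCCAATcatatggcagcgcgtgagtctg
Dhcr7, chr7:143830120-143830199, plus strand: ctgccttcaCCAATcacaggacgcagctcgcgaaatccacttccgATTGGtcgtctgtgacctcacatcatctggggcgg
Insig1, chr5:28071162-28071241, plus strand: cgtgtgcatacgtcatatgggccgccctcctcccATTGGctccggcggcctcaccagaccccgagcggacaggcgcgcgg
Hmgcs1, a synthase of the route, was chosen for its sequence and fell by 0.81 on the log2 scale (SE 0.03).

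Of genes of serine, one-carbon and amino acid metabolism and its stress response, 22 were tested, of which 7 rose and 12 fell (median −0.19). Phgdh (−0.72, SE 0.04), Psph (−0.54, SE 0.08), Mthfd2 (−0.55, SE 0.07) and Pycr1 (−1.15, SE 0.08), of serine and proline synthesis and the folate cycle, fell. Tdh, as above, Gcat (0.85, SE 0.07) and Gldc (0.65, SE 0.04), which break down threonine and glycine, rose, as did Cth (0.75, SE 0.14), which makes cysteine. Ribosomal protein genes fell in 70 of 79 cases and rose in 1, Rpl21 (0.10, SE 0.04), with a median of −0.45. Their summed levels ran from 64960 to 68070 CPM in the WT libraries and from 47840 to 50150 CPM in the KD libraries. Between KD and WT ESCs their median was −0.30, and the KD effect differed between the stages in 8 of the 79, against 23.0% of all genes. Rpl3 (−0.60, SE 0.03), Rps3 (−0.35, SE 0.04) and Rpl26 (−0.64, SE 0.03) fell, and Rpl38 (−1.11, SE 0.11) fell further than these. Ribosomal protein genes have many processed copies, so the counts of single members are uncertain. Nuclear genes of the respiratory chain fell in 31 of 57 cases and rose in 3, among them Atp5b (0.19, SE 0.03) and Atp5j (0.13, SE 0.04), mostly by small amounts (median −0.17). In a fit of all 12 libraries 12 of them fell (median −0.11), and 5 rose without KD 1 or with library size only. Between KD and WT ESCs the median of the respiratory chain list was −0.35. Uqcrc1 could not be placed, since its libraries ranged from 2.12 to 143 CPM in WT and from 2.49 to 35.1 CPM in KD EBs. Of the 12 tested mitochondrial mRNAs 7 rose and 1 fell: mt-Cytb (1.14, SE 0.03) and mt-Nd4 (0.47, SE 0.03) rose and mt-Co1 (−0.31, SE 0.03) fell. The median of this list between KD and WT was 0.40 in EBs and 0.35 in ESCs.

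Cell cycle genes did not move as one. The D-type cyclins start the cycle with CDK4 and CDK6: Ccnd2 (−1.67, SE 0.05), Ccnd3 (−0.57, SE 0.03) and Cdk6 (−0.83, SE 0.08) fell and Ccnd1 (0.42, SE 0.06) and Cdk4 (0.57, SE 0.03) rose. Of 30 genes of replication and mitosis 5 rose (3 without WT 3 or KD 1) and 14 fell, and the proliferation markers Mki67 (0.08, SE 0.04, edgeR adjusted p = 0.0625), Mcm2 (−0.07, SE 0.03, edgeR adjusted p = 0.054) and Top2a (−0.06, SE 0.03, edgeR adjusted p = 0.0961) did not pass, though each was called in some other settings. Ccnb2 (−0.64, SE 0.04) and Aurkb (−0.52, SE 0.04) fell and Tyms (0.55, SE 0.05) and Rrm2 (0.36, SE 0.04) rose. In the list of p53 and its targets 15 of 22 genes fell and 2 rose. The p53 gene itself, Trp53, was among the 2 that rose: it stood at 173, 195 and 179 CPM in the WT libraries and 249, 254 and 252 CPM in the KD libraries (log2 fold change 0.46 ± 0.04 SE, adjusted p = 1.51e-11 by edgeR). Btg2, a brake on growth, stood at 156, 150.2 and 151 CPM in the WT libraries and 57.5, 62.4 and 57.8 CPM in the KD libraries (log2 fold change −1.37 ± 0.04 SE, adjusted p = 1.04e-21 by edgeR). Cdkn1a (−0.73, SE 0.04), Mdm2 (−0.58, SE 0.04), Zmat3 (−0.79, SE 0.04) and Phlda3 (−0.98, SE 0.06) fell alongside.

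Immediate early genes, switched on within minutes by growth signals and by handling, fell in 15 of 21 cases together with heat shock genes and rose in 1, Hsph1 (0.46, SE 0.04). Fos stood at 36.5, 33.98 and 31.8 CPM in the WT libraries and 7.57, 7.65 and 6.18 CPM in the KD libraries (log2 fold change −2.26 ± 0.10 SE, adjusted p = 2.59e-18 by edgeR). Fosb (−2.23, SE 0.21), Zfp36 (−1.66, SE 0.10), Junb (−0.91, SE 0.06), Egr1 (−0.68, SE 0.06) and the chaperone gene Hspa1b (−1.59, SE 0.16) fell, and Jun (−0.03, SE 0.04, edgeR adjusted p = 0.517) did not pass.

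Genes that interferons induce fell in 13 of 23 cases and rose in 5 (median −0.52). Oas3, a sensor of double-stranded RNA, stood at 8.78, 9.69 and 7.36 CPM in the WT libraries and 0.745, 0.591 and 0.974 CPM in the KD libraries (log2 fold change −3.47 ± 0.23 SE, adjusted p = 4.08e-14 by edgeR). The tethering protein gene Bst2 stood at 99.03, 95.5 and 98.5 CPM in the WT libraries and 35.2, 37.4 and 41.2 CPM in the KD libraries (log2 fold change −1.36 ± 0.06 SE, adjusted p = 2.62e-19 by edgeR). All KD libraries lay below all WT libraries for both. The factor genes parted, with Irf7 (−2.09, SE 0.57) lower and Irf9 (0.52, SE 0.09) higher. In antigen presentation by MHC class I, H2-K1 (−1.45, SE 0.05) and the peptide transporter Tap1 (−1.60, SE 0.13) fell, though the light chain B2m (0.16, SE 0.06) rose slightly. Of 13 tested class I genes 11 fell and 1 rose (median −1.49), with the caution that these genes are near-identical copies among which reads can be misplaced.

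The interferon-stimulated response element is a pair of GAAA units. On either strand, GAAA followed after any 2 bases by another GAAA was found in 13 of 23 matched promoters of the list (56.5%). The share was 4.0% of all symbols with a promoter and 3.3% of those tested. Of the 12 matched genes that fell 6 held the motif, and so did 2 genes that rose. The list was made of genes that interferons induce, so its high share is not a test of why members fell. The windows, with the motif in capitals, are those of 2 genes that fell and of B2m, which did not:
Oas3, chr5:120777695-120777774, minus strand: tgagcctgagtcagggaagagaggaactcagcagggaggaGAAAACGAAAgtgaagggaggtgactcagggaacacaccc
Bst2, chr8:71537557-71537636, minus strand: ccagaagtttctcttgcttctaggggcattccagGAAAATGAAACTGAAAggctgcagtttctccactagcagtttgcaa
B2m, chr2:122147508-122147587, plus strand: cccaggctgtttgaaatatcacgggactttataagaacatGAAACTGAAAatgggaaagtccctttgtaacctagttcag

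Changes also lined up along chromosomes. After the values were seen, runs of at least 4 neighbouring tested genes were sought in which every gene was called in the same direction with an absolute log2 fold change of at least 1. There were 18 runs, 15 higher and 3 lower. The Hox clusters and the Igf2r domain made up some of them. The longest, on chromosome 18 from 37294812 to 37524479, held the 13 tested protocadherin beta genes, single-exon genes for adhesion molecules of which each neuron uses a few. All 13 rose (median 2.55, from 1.83 to 3.55), and their summed level was 6.10 to 8.10 CPM in the WT and 35.6 to 38 CPM in the KD libraries. Of the 21 tested protocadherin gamma transcripts 13 rose and 2 fell, and of 7 alpha ones 5 rose and 0 fell.

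A run of 10 genes that fell lay on chromosome 17 from 34143307 to 34340229, in the class II region of the major histocompatibility complex (median −2.17). It held class II genes, which present peptides on immune cells, and the genes of the class I peptide transporter and of immunoproteasome subunits. Tap1 stood at 31.8, 34.01 and 36.6 CPM in the WT libraries and 13.7, 8.47 and 11.7 CPM in the KD libraries (log2 fold change −1.60 ± 0.13 SE, adjusted p = 6.83e-08 by edgeR). H2-Ab1, a class II beta chain, had 17.6 ± 0.560 CPM in WT and 4.79 ± 0.858 CPM in KD EBs (log2 fold change −1.88 ± 0.13 SE, adjusted p = 2.01e-13 by edgeR). The fall was shared by genes of both presentation routes. H2-DMb2 had 21, 16 and 16 counts in the WT libraries and 0 in each KD library, at least 5.8-fold lower. Over the complex, 8 of 8 tested class II genes fell and 0 rose (median −2.06), with H2-Oa at −2.82 (SE 0.24). Another run that fell held 5 genes around Oas3 on chromosome 5 from 120648812 to 120824163. These genes were chosen after their values were seen, other than Tap1, H2-Oa and Oas3.

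**Figure D5:**
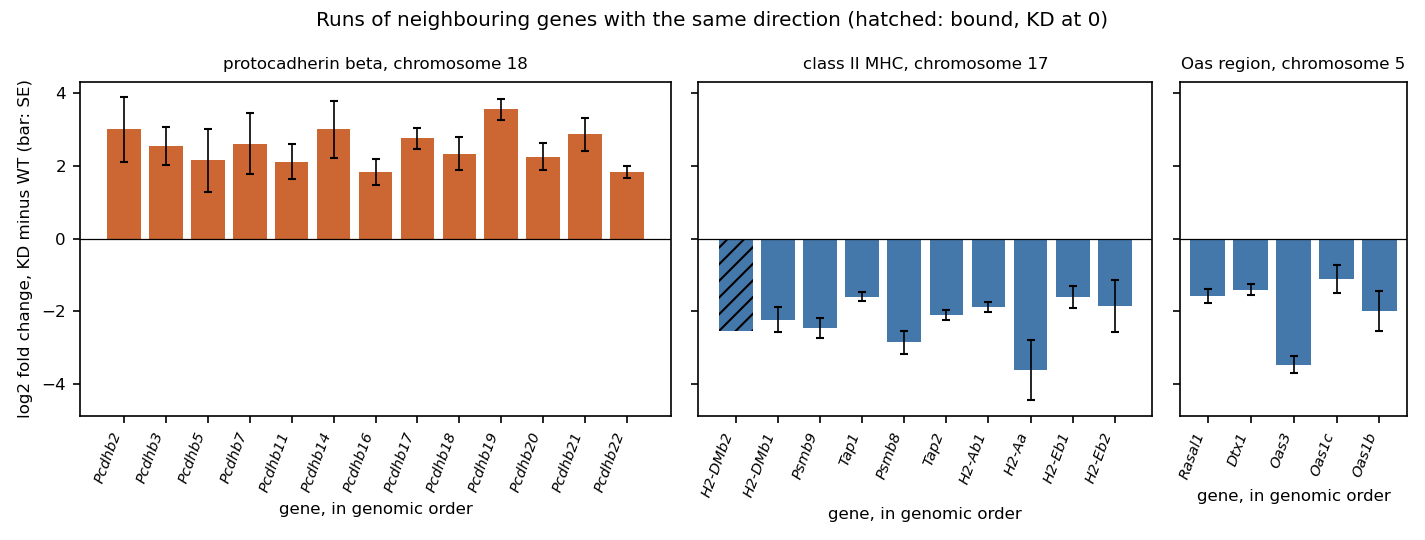
Log2 fold change (vertical axis, KD minus WT, with SE) of the genes of 3 runs in genomic order (horizontal axis). The 13 protocadherin beta genes lie between 1.83 and 3.55, and all 15 genes of the class II and Oas runs lie below −1; the hatched bar is the bound of H2-DMb2, which had 0 counts in KD libraries.

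Zinc finger genes of the Zfp series rose in 176 of 385 cases and fell in 40 (median 0.20). Zfp988, Zfp978, Zfp982 and Zfp985 made up a run of 4 genes that rose, on chromosome 4 from 147305674 to 147585198. On chromosome 13, from 65976343 to 66854871, 7 neighbouring genes rose. These were Zfp640 and, beside it, genes outside the Zfp series, mostly gene models. How many of the Zfp genes that rose lie in arrays was not counted. Members of zinc finger arrays are similar copies. By chromosome, chromosome 11 had the lowest autosomal median (−0.13), with 39.4% of its 1349 tested genes lower and 21.4% higher. Within it, between 110 and 120 Mb, 58 of 76 well-expressed coding genes fell (median −0.36), the lowest of 174 windows of 10 Mb, whose medians ran up to 0.29. The adjoining window, from 120 to 130 Mb, ranked 3 from the lowest, with 24 of 38 genes lower and 1 higher (median −0.25). Slc16a3 lies in that window. In ESCs the medians of the same genes between KD and WT were −0.08 and −0.09. Why these stretches differed was not tested.

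Some of the largest changes fell outside the lists. Fat4, a giant cadherin of planar polarity on chromosome 3 from 38886940 to 39011985, stood at 2.65, 3.52 and 2.44 CPM in the WT libraries and 60.5, 58.6 and 51.5 CPM in the KD libraries (log2 fold change 4.31 ± 0.11 SE, adjusted p = 3.96e-23 by edgeR). Megf10, an engulfment receptor gene, stood at 1.49, 1.07 and 1.15 CPM in the WT libraries and 21.4, 21.2 and 18.7 CPM in the KD libraries (log2 fold change 4.04 ± 0.15 SE, adjusted p = 6.13e-20 by edgeR). The phosphoglucomutase-like Pgm5 (3.92, SE 0.12) of muscle adhesions rose as well. Among the falls, Fxyd2, which encodes a subunit of the sodium pump of kidney tubules, stood at 8.97, 12.2 and 9.75 CPM in the WT libraries and 0.931, 1.28 and 1.43 CPM in the KD libraries (log2 fold change −3.08 ± 0.20 SE, adjusted p = 5.19e-14 by edgeR). Alox15, the lipoxygenase of membrane lipids, stood at 16.6, 19.3 and 17.97 CPM in the WT libraries and 1.80, 2.36 and 2.46 CPM in the KD libraries (log2 fold change −3.02 ± 0.15 SE, adjusted p = 3.43e-17 by edgeR). Neither had overlapping groups. The stress gene Gadd45b (−3.04, SE 0.09), the dioxin-responsive Cyp1a1 (−2.97, SE 0.20), the brain aldolase Aldoc (−2.85, SE 0.12) and the calcium pump gene Atp2a3 (−3.13, SE 0.17) fell by similar amounts. With 0 counts in each KD library, the kidney cadherin gene Cdh16 (65, 60 and 37 counts in WT) was at least 17.8-fold lower and the chitinase-like Chil4 (35, 49 and 70) at least 16.6-fold lower. In the other direction Ctla2a had 34, 34 and 33 counts in KD and 0 in each WT library, at least 11.5-fold higher.

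Genes used as loading controls were not all level. Of 12 tested 4 rose and 2 fell, with log2 fold changes from −1.02 to 2.25 over the list. Actb (−0.28, SE 0.02) fell, Ppia (0.16, SE 0.03) and Ywhaz (0.26, SE 0.03) rose, and Tbp (0.04, SE 0.07, edgeR adjusted p = 0.634) did not pass.

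Whether the KD acted differently in EBs than in ESCs was tested in 1 fit of all 12 libraries, where 4370 of 18975 genes (23.0%) differed. Among the named genes and list members, 5 were called in opposite directions in the 2 stages. How many of the named genes and list members were called in both stages was not counted, so no share can be set beside the 5. Each effect in EBs or ESCs below comes from a fit of that stage alone. The difference comes from the fit of all 12 libraries, so it need not equal the gap between the 2 effects. Lefty2, a NODAL inhibitor like Lefty1, changed by 2.14 in EBs and −0.69 in ESCs (difference 2.90, SE 0.17, edgeR adjusted p = 3.59e-08). Dnmt3b changed by −0.56 in EBs and 0.52 in ESCs (difference −1.01, SE 0.09, edgeR adjusted p = 9.24e-07). The imprinted H19 changed by 0.51 in EBs and −1.81 in ESCs (difference 2.40, SE 0.19, edgeR adjusted p = 5.86e-07), Sall1 by −0.34 in EBs and 0.60 in ESCs (difference −0.87, SE 0.12, edgeR adjusted p = 1.29e-04) and the apolipoprotein gene Apom by 0.48 in EBs and −1.27 in ESCs (difference 1.82, SE 0.25, edgeR adjusted p = 1.07e-04).

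All values rest on 3 libraries per group. Of the 442 named genes that were called, 375 kept call and direction in each of the 12 other settings tried. The call was lost in at least 1 setting by 67, and 0 of the 442 reversed direction. Only genes named by the rule given below were checked singly. Genes chosen after their values were seen, such as Onecut1 and Plagl1, were not, so the losses listed here do not cover them. With 1 library left out, of the genes described above, Gata1 lost the call without WT 2 or KD 1 or KD 3 (log2 fold change −1.91 to −1.34 there), Mef2c lost the call without WT 3 or KD 1 (log2 fold change 0.48 to 0.50 there), Fgf5 lost the call without WT 1 or WT 3 or KD 3 (log2 fold change −0.24 to −0.19 there), B2m lost the call without WT 1 or WT 2 or KD 1 or KD 2 (log2 fold change 0.14 to 0.16 there), Rpl21 lost the call without WT 1 or WT 3 or KD 2 or KD 3 (log2 fold change 0.06 to 0.11 there) and Atp5j lost the call without WT 2 or WT 3 or KD 2 (log2 fold change 0.10 to 0.12 there). In the fit of all 12 libraries, the ESC libraries enter both the normalization and the estimate of the spread. The median log2 fold change over all tested genes was 0.062 there, against 0.002 in the EB fit. Of the genes called there 57.2% were higher, against 50.3%. Of the named genes 62 lost the call in the fit of all 12 libraries, 41 of them in that fit alone. Those described above were, with the edgeR adjusted p in that fit, Gata4 (0.793), Dnmt1 (0.726), Foxa2 (0.694), Rpl21 (0.619), Fgf5 (0.606), Sall4 (0.594), Tdg (0.391), Hoxb4 (0.373), Eya2 (0.353). They were also Snai1 (0.319), Bmp2 (0.285), mt-Co1 (0.256), Sox17 (0.246), Mef2c (0.246), Wnt2b (0.213), Gata3 (0.189), Flt4 (0.167), Zic2 (0.149). With adjusted p nearer the threshold they included B2m (0.131), Lhx1 (0.118), Lef1 (0.111), Lats2 (0.102), Actb (0.097), Snrpn (0.0955), Axin2 (0.0799), Gata1 (0.0586), Cdon (0.0556) and Bmp6 (0.0553).

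The counts of 25 of the 56 lists moved by over 1.5 times in at least 1 direction in that fit. Of BMP genes 1 rose and 3 fell there, against 6 and 9 in the EB fit. WNT ligands and modulators had 6 lower against 11, WNT targets 5 higher against 9, yolk sac genes 5 higher against 9, axon guidance genes 4 lower against 8, and interferon genes 2 higher against 5. Formative and primed genes had 4 lower against 7, replication and mitosis genes 9 lower against 14, cyclins and their partners 4 higher against 7, DNA methylation genes 1 lower against 4, and hedgehog genes 1 lower against 2.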

How the data were processed

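RNA-seq counts per gene were analysed for 12 libraries of E14 ESCs and day 6 EBs, WT and KD, 3 per group; the series' design text calls them biological replicates. The deposited counts were made by the authors with HISAT2 2.1.0 and featureCounts 2.0.3 (mm10), per the submitters' processing notes; per the file headers, featureCounts used Ensembl release 90 of GRCm38, without a strand option, and mates were counted singly (61.7% to 64.3% of EB counts of 1 to 10 were even). Totals of 30331578 to 35001853 per EB library set the precision, and floors at 3 counts cover counting error only.

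KD was compared with WT in EBs with edgeR 4.0.16 (R 4.3.3, limma 3.58.1): TMM normalization, genes kept with filterByExpr (minimum count 10, minimum total 15), the robust quasi-likelihood test, and Benjamini-Hochberg adjustment over all tested genes with a threshold of 0.05. The 6 EB libraries were fitted alone, and the difference between the KD effects in EBs and ESCs in a fit of all 12. Of 52636 genes, 52403 matched a symbol. The test was checked on simulated counts. Promoters came from RefSeq (GRCm38.p6). DESeq2 1.42.0, other scalings, no filter, a replicate block and leaving out each library were alternatives.

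Named genes were the 20 called genes per direction with the largest fold change and a mean of at least 2 log2 CPM that were not gene models, the first 3 members of each of 56 lists and up to 4 called members per direction, the 10 per direction with the largest CPM difference, and genes seen in 1 group only. The members, lists and comparisons were chosen with earlier results of these data known. Some genes are not reported here.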

Additional observations from a re-analysis of the deposited data

Results flagged for a closer look

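The KD effect differed between EBs and ESCs, by a test of the difference in the fit of all 12 libraries, in 4370 genes. Of the named genes and list members, 5 were called in opposite directions in the 2 stages, and the number called in both stages was not counted. On the log2 scale, the EB effect minus the ESC effect was 2.895 for Lefty2, an inhibitor of NODAL, and 2.395 for the imprinted H19. It was 1.816 for the apolipoprotein gene Apom, −1.014 for the DNA methyltransferase gene Dnmt3b and −0.872 for the zinc finger gene Sall1. Without ESC WT replicate 2 these differences were 2.842, 2.531, 1.549, −0.974 and −0.801 in the same order, all still past the threshold.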

How the results depend on the processing

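The count of genes called between KD and WT EBs, 9667, was 9621 with library size only, 9722 with upper-quartile normalization (46.9% of them higher, against 50.3%), 9448 with DESeq2, 9746 with no filter and 6650 in a fit of all 12 libraries (57.2% higher). Leaving out each EB library gave 8923 to 9230. The difference between stages, 4370 genes (55.6% higher), had 4133 with library size only, where 35.3% were higher and the median over all genes moved to −0.131, 5361 with DESeq2 and 4281 with no filter. Leaving out 1 library gave 3389 to 5507. A fit with the replicate number as a block called 9655 and 4023 genes; same-numbered EB libraries correlated at 0.014, −0.004 and 0.007, so the numbers were not taken to pair the samples. Of 5 lists with medians that changed sign, 2 did so without EB KD replicate 1: the definitive endoderm and gut list ranged from −0.001 to 0.137 and the neural list from −0.011 to 0.258 over the fits that left out 1 library. The other 3 did so otherwise: with all 12 libraries in 1 fit, the LIF and STAT3 pathway went from −0.028 to 0.031 (0.012 without EB WT replicate 1), paraxial and intermediate mesoderm from −0.035 to 0.025 and collagen chains from −0.038 to 0.022. The median over all tested genes was 0.062 in the fit of all 12 libraries, against 0.002 in the EB fit. Upper-quartile normalization was not run for the difference between stages. Of 39 named genes that were not called, 22 had the other sign in a setting.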
